A study of Homo sapiens with 6 samples.

Results

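Netrin 1 (NTN1), the related ligand netrin 4 (NTN4) and the netrin receptors UNC5B and neogenin (NEO1) were followed in U2OS cells, an established human osteosarcoma line, after depletion of E2F7. The 4 genes were taken by name where all 6 tables list them, out of 11886 genes listed in all 6. NTN1 was chosen by its higher FPKM in siE2F7 cells at every time, so its difference between the arms is given as a description with no test; the other 3 were taken as relatives or receptors, with earlier results of these data known. The first arm received siRNAs to E2F7 (siE2F7), the other control siRNAs with no target (siNT). E2F7 belongs to the atypical E2Fs, which act as repressors of genes that other E2Fs switch on. Both arms were growing cultures that had been held in 4 mM hydroxyurea, which blocks DNA synthesis, for 24 h. They were then washed into complete medium and sampled at 0, 3 and 12 h, times that stand for G1/S at 0 h, S phase at 3 h and G2/M at 12 h in the submitters' design. Each arm had 1 library at each time, all from this 1 line.

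Netrins are secreted proteins related to laminins that steer migrating cells and growing axons. Netrin 1 attracts or repels a cell according to the receptors the cell carries: receptors of the DCC family, to which neogenin belongs, commonly mediate attraction, and UNC5 receptors repulsion. DCC and the UNC5 receptors are also called dependence receptors, because they can trigger apoptosis when no netrin is bound and netrin 1 relieves that signal. Netrin 4 is found in basement membranes, where it binds laminin gamma chains.

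Levels are given in FPKM, a read-out of fragments corrected for the length of the transcript and the size of the library, so levels of different genes can be compared; the tables hold no counts, and the depth is unknown. FPKM summed to between 351305 and 375954 per library. E2F7 itself stood at 9.48, 10.6 and 5.52 FPKM in siE2F7 cells at 0, 3 and 12 h, against 20.3, 29.4 and 16.6 FPKM in siNT cells. The arms were compared with limma across the 3 times, with time blocked, on values of log2(FPKM + 0.1). A gene was called at a Benjamini-Hochberg adjusted p under 0.05 over all 11886 genes. Of all genes tested, 13.9% were called: 6.76% were higher and 7.13% lower in siE2F7 cells. Of the mesenchymal and bone markers, VIM (759 to 886 FPKM), SPARC (401 to 528 FPKM), COL1A1 (261 to 376 FPKM) and CDH2 (19.4 to 27.9 FPKM) were higher than ALPL (4.61 to 12.4 FPKM) and RUNX2 (2.83 to 4.60 FPKM). COL1A2 was listed at no time under its own or an older symbol. Of the 6 markers tested 0 rose and 1 fell, ALPL (-0.37 ± 0.10 on the log2 scale, SE, limma adjusted p = 0.043, lost on dropping any single time), with a median log2 change of -0.16. Of 7 epithelial, blood and endothelial markers 3 were tested and none was called (median log2 change -0.04). EPCAM lay between 2.33 and 3.27 FPKM, CD68 between 5.31 and 7.19 FPKM and LAPTM5 between 0.937 and 2.47 FPKM. PTPRC, PECAM1 and CDH5 were listed at no time under their own or older symbols. CDH1 was listed at 0 and 3 h only, between 1.29 and 1.69 FPKM.

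NTN1 (hg19, chromosome 17, 8924859 to 9147317) was the netrin with the widest difference between the arms. It stood at 16.6, 13.9 and 10.3 FPKM in siE2F7 cells at 0, 3 and 12 h, against 5.68, 4.05 and 1.77 FPKM in siNT cells. The lowest siE2F7 library, that of 12 h, was above the highest siNT library, that of 0 h; the gene was chosen for being higher at each time. The siE2F7 level was 2.92 times the siNT level at 0 h, 3.42 times at 3 h and 5.81 times at 12 h, each from 1 library against 1. In bulk RNA, more cells with the transcript and more transcript per cell cannot be told apart. Over the 3 times the log2 difference was 1.92 ± 0.17 (SE of the fit, n = 3 pairs), the 14th highest of 11886 genes and the 8th highest of the 11743 that are not small RNA entries.

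The level of NTN1 declined with time in both arms, though nothing shows that the tables of different times were scaled together, so these values carry no test. The 12 h library had 0.620 of the 0 h FPKM in siE2F7 cells and 0.312 of it in siNT cells. Set among the 11886 genes listed at all times, NTN1 lay above 63.1%, 57.9% and 48.3% of genes in siE2F7 cells at 0, 3 and 12 h. In siNT cells it lay above 27.7%, 19.99% and 4.34% of genes. Its transcript was thus near the middle of the listed genes in each siE2F7 library and among the lowest in siNT cells at 12 h.

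**Figure D1:**
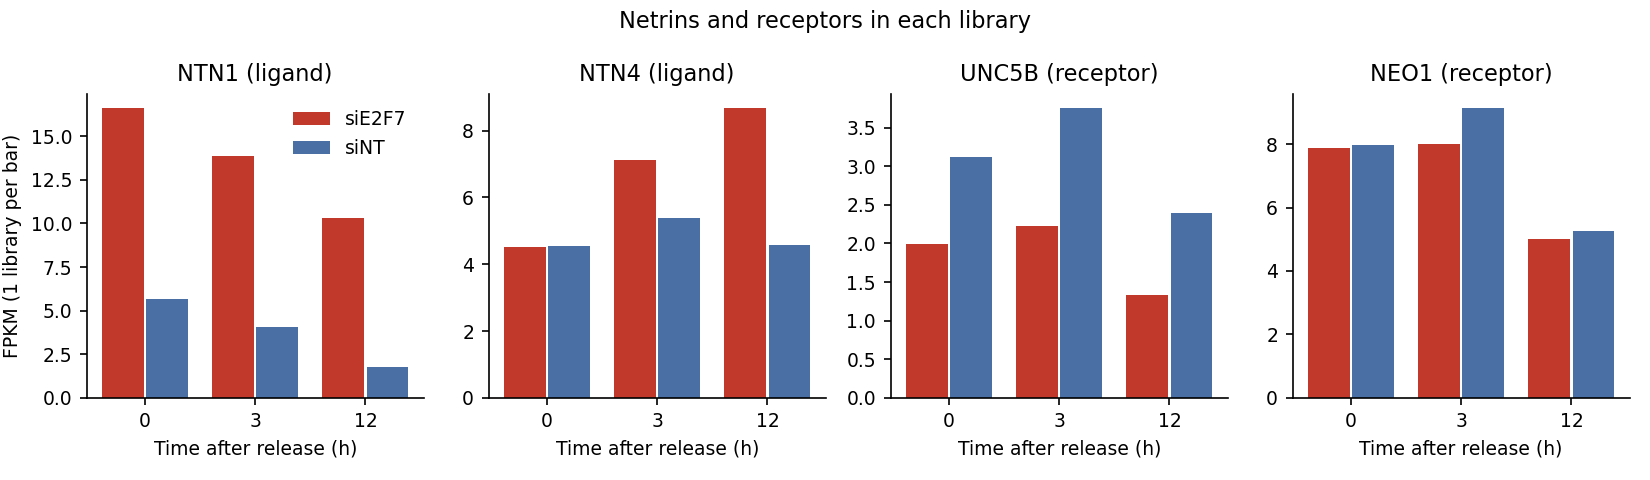
FPKM of NTN1, NTN4, UNC5B and NEO1 at 0, 3 and 12 h after release, with siE2F7 (red) left of siNT (blue); each bar is 1 library and each panel has its own axis. NTN1 is higher and UNC5B lower in siE2F7 at every time, NTN4 differs by 1.90 times at 12 h and not at 0 h, and NEO1 has nearly level bars.

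NTN4 (hg19, chromosome 12, 96051583 to 96184536) did not pass the test over the 3 times. It stood at 4.52, 7.11 and 8.68 FPKM in siE2F7 cells at 0, 3 and 12 h, against 4.55, 5.39 and 4.57 FPKM in siNT cells. The 0 h libraries were almost level, and only the siE2F7 libraries of 3 and 12 h lay above the whole siNT range. The ratio of siE2F7 to siNT was 0.994 at 0 h, 1.32 at 3 h and 1.90 at 12 h. The log2 change was 0.43 ± 0.17 (SE, limma adjusted p = 0.13), with an interval from 0.04 to 0.82 (95%, not adjusted for the number of genes). Without the libraries of 0 h it was 0.65 and passed (adjusted p = 0.047), and without those of 12 h it was 0.19 (adjusted p = 0.48). Within siE2F7 cells the 12 h level was 1.92 times the 0 h level, against 1.005 times in siNT cells, while NTN1 had its lowest level of each arm at 12 h. NTN1 was 3.67, 1.95 and 1.19 times NTN4 in siE2F7 cells at 0, 3 and 12 h, against 1.25, 0.751 and 0.388 times in siNT cells.

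Promoter windows are shown because the factor depleted here binds promoters. They cover NTN4 and NEO1, neither of which was called over the 3 times. Windows run from 250 bases before to 50 bases after a gene's start and come from RefSeq (build GRCh38.p14). Only these 2 of the 4 genes matched the table, and no window was found for NTN1 or UNC5B. Both strands were searched for TTTNNCGC and TTTNNCGG, which cover the usual E2F consensus along with other letters, and matches are in capitals. The printed NTN4 window is chr12:95791106-95791405 (minus strand), and a second NTN4 start has its own window, described below. The NEO1 window is chr15:73051652-73051951 (plus strand). Each is printed on the strand of its gene.
NTN4: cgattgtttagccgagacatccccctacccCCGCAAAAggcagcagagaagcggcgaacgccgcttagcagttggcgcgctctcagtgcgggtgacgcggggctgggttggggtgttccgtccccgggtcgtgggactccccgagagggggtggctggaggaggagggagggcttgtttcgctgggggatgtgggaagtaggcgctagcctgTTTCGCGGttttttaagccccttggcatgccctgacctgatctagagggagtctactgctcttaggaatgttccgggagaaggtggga
NEO1: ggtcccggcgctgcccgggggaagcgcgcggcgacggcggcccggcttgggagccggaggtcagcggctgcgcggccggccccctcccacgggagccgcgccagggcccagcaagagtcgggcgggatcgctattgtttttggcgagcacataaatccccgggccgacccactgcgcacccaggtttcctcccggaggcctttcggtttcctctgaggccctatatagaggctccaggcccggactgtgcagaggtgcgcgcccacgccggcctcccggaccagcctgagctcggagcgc

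The printed NTN4 window held 2 matches to TTTNNCGG and none to TTTNNCGC. TTTCGCGG began at position -38, and CCGCAAAA, a match on the opposite strand, at position -220, with -1 the base just before the start. As N takes any letter, a match need not be the usual consensus. The window of the second NTN4 start in the table (chr12:95790715-95791014, not printed) had 0 matches, as did that of NEO1. Which of these NTN4 starts the cells used was not tested. Of 35116 promoter windows in the table, 12.8% held a match to either motif, with 6.89% for TTTNNCGC and 6.59% for TTTNNCGG. A match describes letters in a window and is not a binding site, and no link between matches and RNA levels was tested.

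UNC5B, a receptor of netrin 1 and a dependence receptor (hg19, chromosome 10, 72972292 to 73062635), was lower in siE2F7 cells at each time. It stood at 1.99, 2.23 and 1.33 FPKM in siE2F7 cells at 0, 3 and 12 h, against 3.12, 3.76 and 2.401 FPKM in siNT cells. The highest siE2F7 library was below the lowest siNT library, so the arms did not overlap. That gap was narrow, 2.23 against 2.401 FPKM. Here and for the genes below, the share of all genes without overlap was not counted, so a lack of overlap adds no support to a call. The siE2F7 level was 0.639, 0.594 and 0.554 of the siNT level at the 3 times. UNC5B fell by 0.72 ± 0.16 on the log2 scale (SE, limma adjusted p = 0.025, interval -1.08 to -0.35, lower at 3 of 3 times). Of the 3 members tested it was the only call, beside 13.9% of all genes called. With 0, 3 or 12 h left out, the log2 change was -0.77, -0.71 and -0.67 and no longer passed (adjusted p = 0.067, 0.12 and 0.055), nor did it pass with no time block (adjusted p = 0.41). The levels were low, above 5.44%, 8.14% and 1.78% of genes in siE2F7 cells and above 12.3%, 18.3% and 9.52% of genes in siNT cells at 0, 3 and 12 h.

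UNC5B shares its locus with the entry LOC728978, which RefSeq lists as UNC5B-AS1, an antisense RNA. Whether fragments were counted by strand is not given in the sources used here, so fragments of the 2 entries cannot be told apart. LOC728978 stood at 1.88, 3.17 and 1.01 FPKM in siE2F7 cells at 0, 3 and 12 h, against 2.23, 1.59 and 2.18 FPKM in siNT cells. Its arms overlapped, and its log2 change was -0.11 ± 0.35 (SE, limma adjusted p = 0.86).

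NEO1, which binds netrins and also the repulsive guidance molecules (hg19, chromosome 15, 73344825 to 73597547), differed little between the arms. It stood at 7.89, 8.01 and 5.01 FPKM in siE2F7 cells at 0, 3 and 12 h, against 7.98, 9.14 and 5.27 FPKM in siNT cells. The ratios were 0.988, 0.876 and 0.951. The log2 change was -0.09 ± 0.09 (SE, limma adjusted p = 0.54), and its interval from -0.30 to 0.12 leaves room for a modest difference either way. Both arms had less NEO1 at 12 h, with 0.636 of the 0 h level in siE2F7 cells and 0.660 in siNT cells.

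The order of the 4 transcripts differed between the arms. NTN1 was the highest of the 4 in each siE2F7 library, and NEO1 was the highest in each siNT library. NTN1 stood at 8.35, 6.21 and 7.74 times the level of UNC5B in siE2F7 cells at 0, 3 and 12 h, against 1.82, 1.08 and 0.739 times in siNT cells. It stood at 2.11, 1.73 and 2.06 times the level of NEO1 in siE2F7 cells, against 0.712, 0.443 and 0.336 times in siNT cells. NTN1 and NTN4 together came to 21.1, 21.0 and 19.0 FPKM in siE2F7 cells, against 10.2, 9.44 and 6.35 FPKM in siNT cells, and UNC5B and NEO1 together to 9.88, 10.2 and 6.34 FPKM in siE2F7 cells, against 11.1, 12.9 and 7.67 FPKM in siNT cells. These ratios and sums rest in part on the values that chose NTN1 and carry no test.

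**Figure D2:**
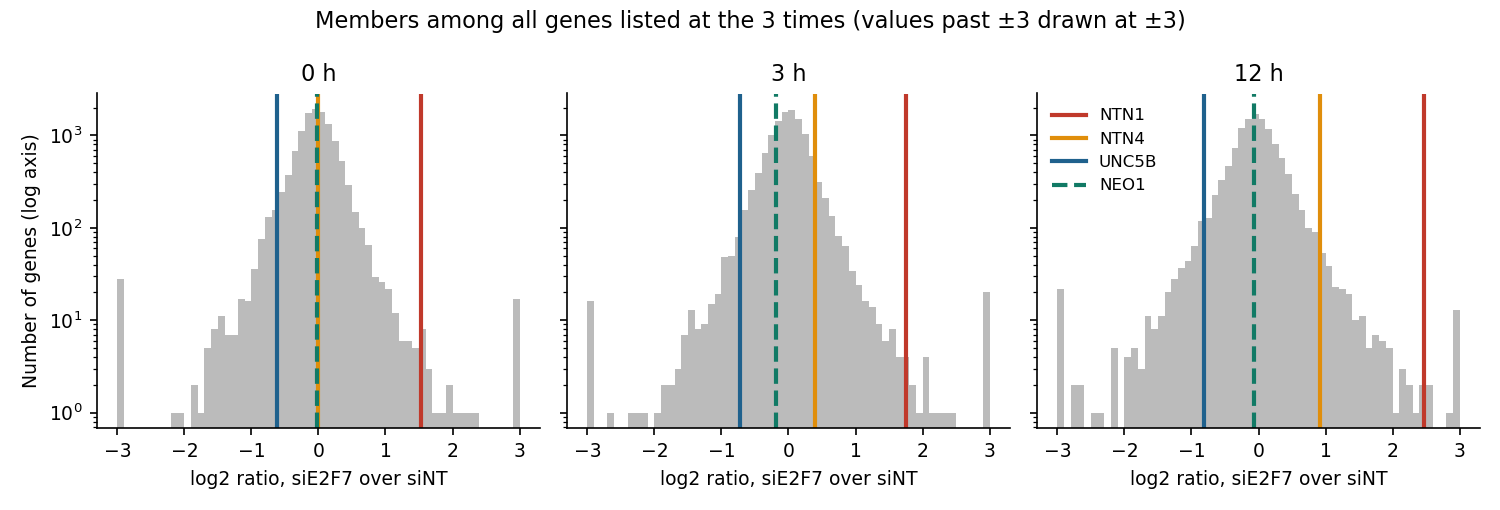
Histograms of the log2 ratio of siE2F7 over siNT for all 11886 genes at each time, on log2(FPKM + 0.1), with a logarithmic axis of gene number; vertical lines mark the 4 genes. NTN1 lies at 1.53, 1.75 and 2.47 in the upper tail, UNC5B at -0.62, -0.73 and -0.81, NEO1 near 0, and NTN4 at -0.0089, 0.39 and 0.91.

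At single times the place of each ratio among the 11886 genes was as follows. NTN1 had the 35th, 33rd and 18th highest ratio at 0, 3 and 12 h. UNC5B had the 469th, 245th and 378th lowest. NTN4 had the 5452nd, 986th and 219th highest, and NEO1 the 5602nd, 8997th and 6463rd highest. The median ratio of all genes on the log2 scale was -0.036, 0.000 and -0.040 at the 3 times, small beside the ratios of NTN1 and UNC5B.

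The other netrins and receptors were read from lists of the pathway. Of 6 netrins 4 were listed at all times. Of the 3 tested apart from NTN1, 0 rose and 0 fell (median log2 change -0.07), beside 13.9% called of all genes. NTNG1, a netrin G anchored to the membrane, had a log2 change of -0.07 ± 0.13 (SE, adjusted p = 0.77). NTNG2, the other netrin G, stood at 2.31, 1.49 and 0.802 FPKM in siE2F7 cells at 0, 3 and 12 h, against 2.31, 1.94 and 2.16 FPKM in siNT cells. Its arms were level at 0 h and lay apart at 12 h, and its log2 change was -0.56 ± 0.28 (SE, limma adjusted p = 0.22).

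Of 10 netrin receptors in the list 4 were tested; 0 rose and 1 fell, which was UNC5B, with a median log2 change of -0.22, beside 7.13% of all genes called lower. MCAM, an adhesion molecule that binds netrin 1, was far more abundant than UNC5B or NEO1, at 79.4, 75.3 and 55.1 FPKM in siE2F7 cells, against 86.7, 84.3 and 77.4 FPKM in siNT cells. Its log2 change was -0.26 ± 0.09 (SE, limma adjusted p = 0.087, and called after quantile normalization). ADORA2B, an adenosine receptor reported to act with netrin 1, had -0.18 ± 0.07 (adjusted p = 0.13). The median over all genes was -0.03. DCC, UNC5A, UNC5C, UNC5D, DSCAM and DSCAML1 were listed at no time under their own or older symbols, so no level is given for them.

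Of 8 other ligands and partners of neogenin and the UNC5 receptors, 3 were tested; 1 rose and 0 fell (median log2 change 0.19), beside 6.76% of all genes called higher. RGMA, a repulsive ligand of neogenin, stood at 8.89, 5.03 and 3.01 FPKM in siE2F7 cells at 0, 3 and 12 h, against 6.69, 3.26 and 2.21 FPKM in siNT cells. It was higher in siE2F7 cells at 3 of 3 times with lower levels at later times in both arms, and its log2 change was 0.48 ± 0.11 (SE, limma adjusted p = 0.032; not called without 0 h or 3 h). RGMB, a second ligand of neogenin, had -0.27 ± 0.11 (adjusted p = 0.15), and FLRT2, a ligand of UNC5 receptors, 0.19 ± 0.12 (adjusted p = 0.32). FLRT3, DRAXIN and ROBO4 were listed at only some times. In no listed pair was the higher library under 1.261 FPKM, and UNC5B, at 2.401 FPKM in siNT cells at 12 h, came nearest to that level among the members. A pair with 1 library below that level may have been listed only through its other arm. Such pairs include NTNG2 at 12 h and, below, PLSCR4 at 12 h and EFNA1 at 0 h.

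Of the proteins that carry the signal of DCC and neogenin to the cytoskeleton, 28 were tested; 0 rose and 1 fell, beside 13.9% called of all genes (median -0.02). The call was CDC42, a small GTPase of filopodia, at 94.7, 93.9 and 93.8 FPKM in siE2F7 cells, against 153, 142 and 141 FPKM in siNT cells. The arms of CDC42 did not overlap, and the log2 change was -0.62 ± 0.06 (SE, limma adjusted p = 0.0023). RAC1, the GTPase of lamellipodia, had 0.17 ± 0.07 (adjusted p = 0.15), and PTK2, the focal adhesion kinase, 0.20 ± 0.07 (adjusted p = 0.086). FYN, a kinase of the Src family, had -0.36 ± 0.11 (adjusted p = 0.065).

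Genes tied to death signalling by unbound UNC5 and DCC receptors had 8 members tested here, of which 2 rose and 1 fell (median log2 change 0.08), beside 13.9% called of all genes. PPP2R1B, a scaffold subunit of protein phosphatase 2A, stood at 40.6, 40.1 and 40.1 FPKM in siE2F7 cells, against 24.2, 23.8 and 26.5 FPKM in siNT cells, a log2 change of 0.70 ± 0.07 (SE, limma adjusted p = 0.0020). Every siE2F7 library was above every siNT library. APPL1, an adaptor that binds DCC, rose by 0.30 ± 0.07 (adjusted p = 0.032; lost on dropping any single time). MAGED1, a partner of UNC5A, fell by 0.26 ± 0.06 (adjusted p = 0.035; lost on dropping any single time). PPP2R1B and APPL1 each share a locus with another entry.

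The laminins and integrins to which netrin 4 is tied had 15 members tested, 0 of which rose and 1 of which fell, with a median log2 change of -0.21; 7.13% of all genes were called lower. The call was LAMB3, a laminin beta chain, at -0.29 ± 0.08 (SE, limma adjusted p = 0.049), lost on dropping any single time, with a pseudocount of 0.01, with genes listed at any time and without the variance trend. LAMC1, a gamma chain bound by netrin 4, had -0.21 ± 0.07 (adjusted p = 0.095), and ITGA6, an integrin chain, -0.27 ± 0.08 (adjusted p = 0.068; called without small RNA entries and without 0 h). LAMA1, a laminin alpha chain, had a change of the opposite sign, 0.26 ± 0.07 (adjusted p = 0.061; called without small RNA entries).

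**Figure D3:**
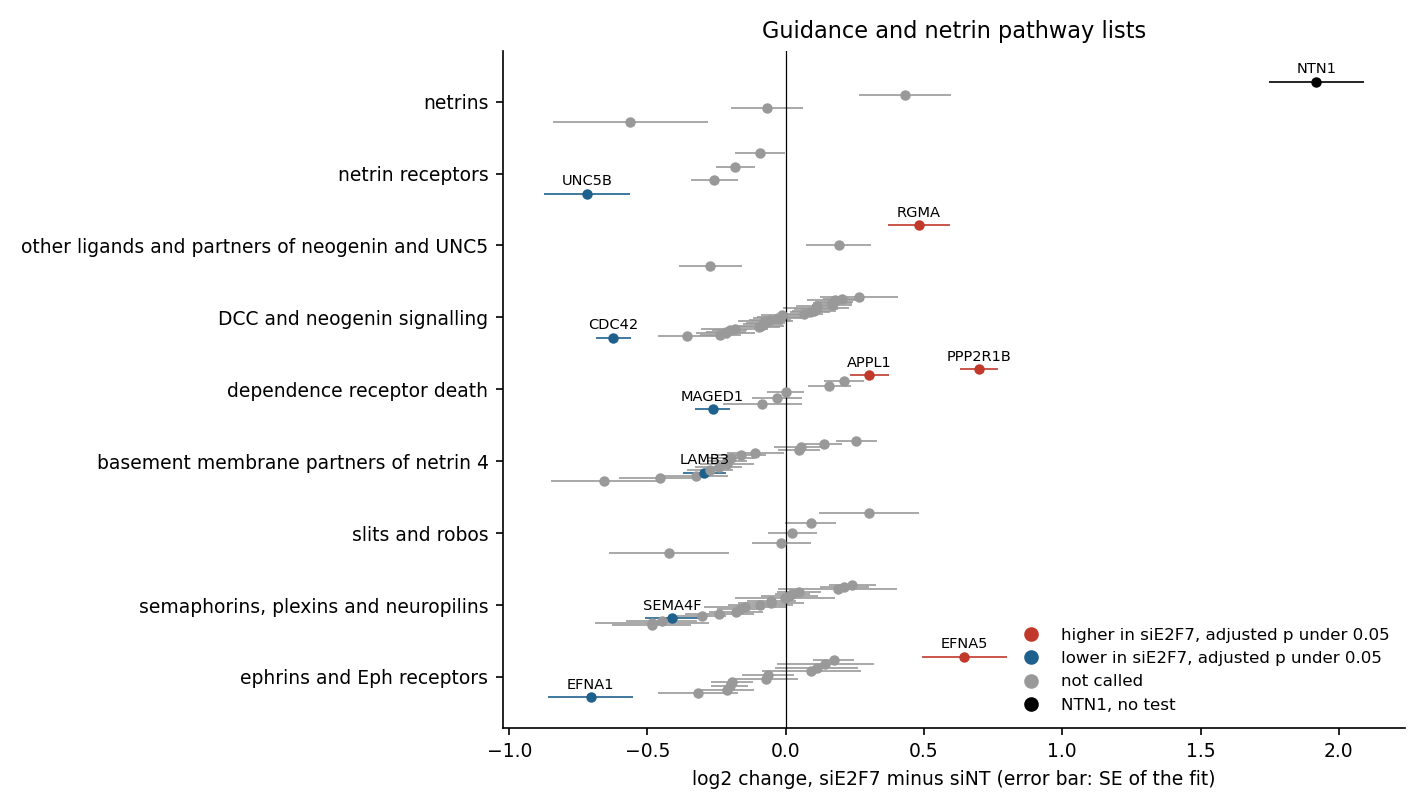
Log2 change of siE2F7 minus siNT with its SE for every tested gene of 9 lists, red and blue where the adjusted p is under 0.05 and grey where not; NTN1, in black, carries no test. NTN1 at 1.92 lies apart from all other points, and UNC5B at -0.72 is the lowest of the netrin receptors.

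Over the 6 libraries, the 5 genes whose log2 levels had the highest Pearson correlation with NTN1 were E2F1 (0.995), GINS2 (0.995), PLSCR4 (0.993), MCM2 (0.992) and CDC45 (0.991), out of 503 genes whose SD over the libraries was at least 0.5 times that of NTN1. The NTN1 levels hold the difference between the arms that chose the gene, and the SD filter was set from these same levels. Genes that differ between the arms in the same direction will tend to correlate with it. The 6 points also share arms and times, so the correlations are a description, and shared control was not tested. E2F1, an activator E2F, stood at 66.5, 67.4 and 54.2 FPKM in siE2F7 cells at 0, 3 and 12 h, against 30.1, 23.4 and 12.0 FPKM in siNT cells. GINS2, a subunit of the replicative helicase, stood at 116, 106 and 83.4 FPKM in siE2F7 cells, against 52.1, 34.5 and 22.1 FPKM in siNT cells. PLSCR4, a phospholipid scramblase, was low, with 4.66, 4.10 and 3.13 FPKM in siE2F7 cells, against 2.09, 1.76 and 1.18 FPKM in siNT cells.

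**Figure D4:**
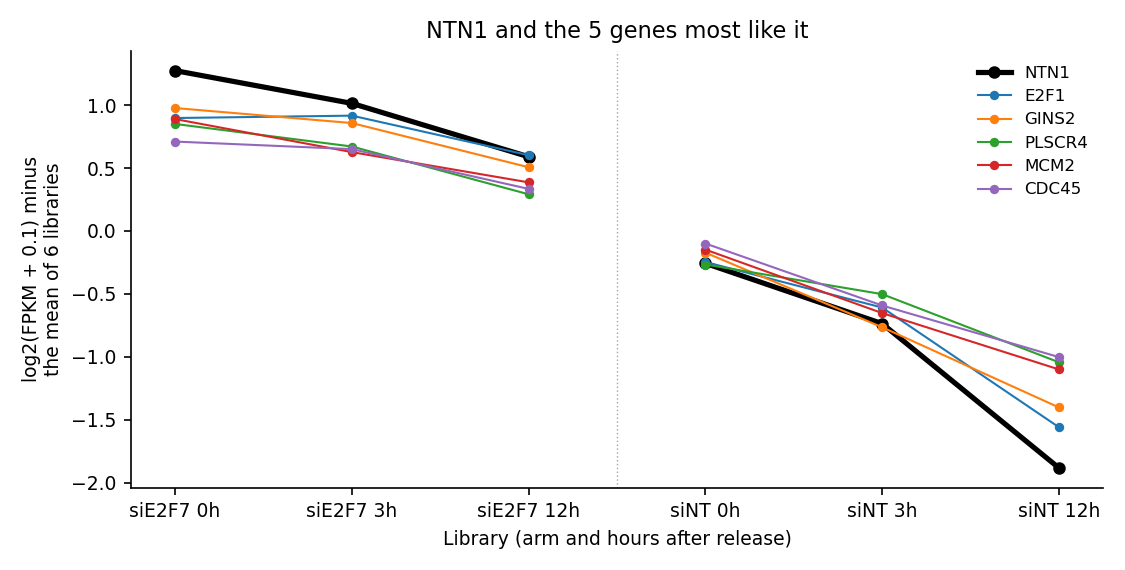
Log2(FPKM + 0.1) less the mean over the 6 libraries, for NTN1 (black) and the 5 genes most correlated with it, at 0, 3 and 12 h in siE2F7 (left) and siNT (right). Each line ends lower at 12 h than it began at 0 h, with the steeper decline in siNT; NTN1 has the widest range of the 6 genes.

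Neighbours on the chromosome did not share 1 direction. MYH10, a non-muscle myosin heavy chain 391 kb from NTN1, stood at 25.4, 24.7 and 18.6 FPKM in siE2F7 cells at 0, 3 and 12 h, against 16.9, 17.1 and 10.3 FPKM in siNT cells. It rose by 0.65 ± 0.09 on the log2 scale (SE, limma adjusted p = 0.0042), with no overlap between the arms. STX8, a syntaxin 6.5 kb from NTN1 on the other side, fell by 0.34 ± 0.08 (adjusted p = 0.036; lost on dropping any single time). SLC29A3, a nucleoside transporter 16.4 kb from UNC5B, had -0.52 ± 0.14 (adjusted p = 0.051) beside -0.72 for UNC5B. PCBD1, 323.8 kb away on the other side of UNC5B, had 0.04 ± 0.09 (adjusted p = 0.81). The nearest listed neighbours of NTN4, METAP2 at 142 kb and SNRPF at 68.2 kb, had 0.03 ± 0.07 and 0.05 ± 0.06 (adjusted p = 0.80 and 0.63). At 12 h their log2 ratios were -0.06 and 0.03, beside 0.91 for NTN4. ADPGK, 254.3 kb from NEO1, had a log2 change of -0.00063 ± 0.071 (adjusted p = 0.997). HCN4, 14.7 kb away on the other side of NEO1, was listed at 0 and 3 h only.

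**Figure D5:**
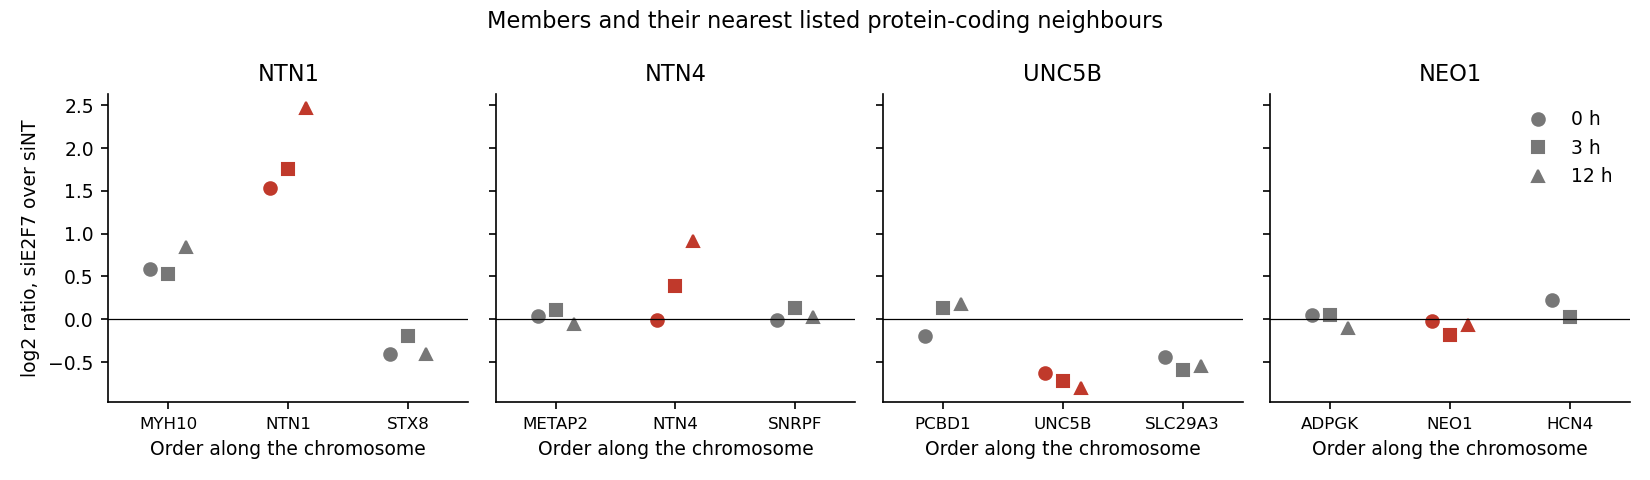
Log2 ratio of siE2F7 over siNT at 0, 3 and 12 h (circle, square, triangle) for each of the 4 genes (red) and its nearest listed protein-coding neighbours (grey), in order along the chromosome and not to distance. NTN1 lies between MYH10, above 0 at each time, and STX8, below 0 at each time.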

How the data were processed

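Per the labels' protocols, TRIzol-extracted, column-cleaned total RNA of 6 U2OS libraries went into a TruSeq RNA kit. The authors deposited FPKM per gene; the submitters' processing notes name CASAVA 1.8 and hg19 (GRCh37). Aligner and annotation: not given in the sources used here. Start positions are counted from 1.

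Of 13161 genes, 11886 were listed at all 3 times. limma 3.58.1 (R 4.3.3) was fitted to log2(FPKM + 0.1) with a time block and a variance trend (2 residual and 5.41 prior degrees of freedom), adjusted by Benjamini-Hochberg over all genes, and tested on simulated data. Fold changes on this scale understate the change of low genes. Nothing says that the times came from separate cultures, so a p-value speaks only of the spread between these libraries, which may be technical.

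The members and lists were chosen with earlier results of these data known. Named genes were the members, E2F7, called list members (at most 4 with the highest and 4 with the lowest change), nearest listed protein-coding neighbours and the 5 genes most correlated with NTN1 (mean of at least 1 FPKM, no small RNA entries). Uncalled list members were chosen after their values were seen. CIP2A and DRAXIN were matched by older symbols. For the death signalling list, 1 gene was taken out after its values were seen and is not reported here; the counts and median leave it out. Alternatives were other pseudocounts, filters, quantile normalization, no trend, no block, and each time left out.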

Additional observations from a re-analysis of the deposited data

Results flagged for a closer look

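NTN4 had a ratio of siE2F7 over siNT on either side of 0 at different times, on the log2 scale: -0.0089 at 0 h, 0.3925 at 3 h and 0.9099 at 12 h. The 0 h value is close to 0, each value compares 1 library with 1, and the difference between the times was not tested.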

How the results depend on the processing

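The direction of the log2 change of NTN1, NTN4, UNC5B and NEO1 held under each of the 11 alternatives, and NTN1 stayed between 1.64 (without the libraries of 12 h) and 2.11 (without those of 0 h). The number of genes called was 1650, against 852 without the variance trend, 32 with no time block, 1095 without the libraries of 0 h and 763 without those of 3 h; fewer samples enter the last 2. UNC5B was called in 7 of the 11 and not with no time block (-0.72, adjusted p = 0.41) or without the libraries of 0 h (-0.77), 3 h (-0.71) or 12 h (-0.67). NTN4 was called in 1, without the libraries of 0 h (0.65), and NEO1 in 0. CDC42 and PPP2R1B kept their calls under all 11 alternatives. Without a time block the calls of RGMA, APPL1, MAGED1, LAMB3, ALPL, SEMA4F, EFNA1, EFNA5, MYH10 and STX8 also ended, and without the variance trend those of APPL1, MAGED1, LAMB3, ALPL and STX8. No paired analysis by replicate number was possible because the labels give no replicate numbers; time is the block. With no counts, the depth that limits low genes such as UNC5B is unknown.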

Other observations

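Other guidance families were read beside 13.9% of all genes called, 6.76% higher and 7.13% lower. Of 5 slit and robo genes tested 0 rose and 0 fell (median log2 change 0.02), with ROBO1, a slit receptor, at 0.02 ± 0.09 (SE, limma adjusted p = 0.89). Of 19 semaphorins, plexins and neuropilins 0 rose and 1 fell (median -0.09): SEMA4F, a membrane semaphorin, stood at 4.95, 4.05 and 4.91 FPKM in siE2F7 cells at 0, 3 and 12 h, against 6.59, 5.68 and 6.27 FPKM in siNT cells, a log2 change of -0.41 ± 0.10 (adjusted p = 0.036).

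Of 12 ephrins and Eph receptors 1 rose and 1 fell (median -0.07), beside the same 13.9% of all genes. Both calls were ephrin ligands anchored by lipid. EFNA5 stood at 5.33, 4.81 and 1.99 FPKM in siE2F7 cells at 0, 3 and 12 h, against 2.84, 2.95 and 1.52 FPKM in siNT cells (log2 change 0.65 ± 0.16, SE, limma adjusted p = 0.035). EFNA1 stood at 0.976, 3.54 and 1.81 FPKM in siE2F7 cells, against 1.68, 5.53 and 3.13 FPKM in siNT cells (-0.71 ± 0.15, adjusted p = 0.025). EFNA1 had its highest level at 3 h in both arms. At 0 h its siE2F7 library lay below 1.261 FPKM, the lowest level of the higher library in any listed pair. The calls of SEMA4F and EFNA1 ended on dropping any single time, and that of EFNA5 without 0 h or 3 h.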
